A study of Mus musculus with 6 samples.

Results

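Partly methylated gene-end windows are 1 kb stretches at the start or the finish of a gene where, averaged over 6 libraries, between 20 and 80% of the cytosines read at CpGs were methylated. They were chosen by that level alone. A window counted when it lay on chromosomes 1 to 19, held at least 5 cytosine positions read in all 6 libraries, lay within 1 kb of either end of an mm10 RefSeq protein-coding or lncRNA gene, and had a mean level of 20 to 80%. The rule found 616 windows among 15206 gene-end windows and 24778 windows in all. Of the other gene-end windows, 13799 were weakly methylated (under 20%) and 791 highly methylated (over 80%), and 1063 partly methylated windows lay away from gene ends. Just inside the limits lay Speg at 20.02%, Fndc11 at 20.04%, Gm45915 at 79.89% and Dohh at 79.97%, and just outside lay Ubl5 and Lrrc15 at 19.99%, Prr23a2 at 80.16% and Vill at 80.17%.

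The libraries came from male C57BL/6 mice aged 7 to 10 months. KI animals had the genotype IDH1+/lsl VavCre+, a knock-in allele of Idh1 behind a stop cassette that Cre, driven by the Vav promoter of blood cells, removes, and Control littermates had the genotype IDH1+/+ VavCre+, so both carried Cre. The change in the Idh1 protein is not given in the labels. From pooled marrow of 6 mice per genotype, 3 cell types that lack lineage markers and carry Sca and Kit were sorted: long-term haematopoietic stem cells (LT-HSC, CD150+ CD48-), short-term haematopoietic stem cells (ST-HSC, CD150+ CD48+) and multipotent progenitors (MPP, CD150-). Each of the 6 combinations was 1 library of enhanced reduced representation bisulfite sequencing (eRRBS), so no group had a replicate, and by the lane numbers in the deposited names none of the lanes held libraries of both genotypes. Lane and genotype cannot be told apart. Of the 5 surface marker genes of the sort or of blood cells, only the Kit gene end was measured, at 0.638 to 4.21%, and methylation does not test the sort.

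In mammals, DNA methylation sits mostly on CpG dinucleotides. CpG-rich gene starts are usually free of it and most other CpGs are nearly fully methylated, so a level between these states means that the molecules read were a mixture. Such a mixture can come from cells that differ, from alleles that differ, as at imprinted genes where only the copy of one parent is methylated, or from neighbouring positions that differ, and a bulk library averages over cells and alleles. Mutant forms of IDH1 found in leukaemia make 2-hydroxyglutarate, which inhibits enzymes that use 2-oxoglutarate, among them the TET enzymes that start the removal of methyl groups from cytosine.

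The promoter stretches below are shown because each carries 1 of the patterns described here. They are from RefSeq (GRCm38.p6), read 5′ to 3′ along the gene, and capitals mark the CpGs measured in all 6 libraries on at least 1 strand. Rfx8 (chr1:39720961-39721034, minus strand), Creb3l4 (chr3:90243558-90243684, minus) and Hoxa6 (chr6:52208788-52208915, minus) were higher in KI. Lhcgr (chr17:88792023-88792092, minus) was higher in MPP than in LT-HSC. Hymai (chr10:13090801-13090894, plus) is the start shared with the imprinted gene Plagl1. Tmem267 (chr13:119488223-119488475, plus) holds low and high CpGs side by side, and Csf2ra (chr19:61228500-61228648, minus) fully and partly methylated ones.
Rfx8: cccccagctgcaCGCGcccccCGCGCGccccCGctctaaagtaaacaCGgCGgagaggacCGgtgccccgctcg
Creb3l4: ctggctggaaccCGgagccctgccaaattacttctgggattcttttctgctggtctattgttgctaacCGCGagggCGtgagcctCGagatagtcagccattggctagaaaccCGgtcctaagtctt
Hoxa6: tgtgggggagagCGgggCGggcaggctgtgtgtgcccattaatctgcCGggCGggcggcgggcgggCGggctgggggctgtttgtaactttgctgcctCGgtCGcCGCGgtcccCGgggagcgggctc
Lhcgr: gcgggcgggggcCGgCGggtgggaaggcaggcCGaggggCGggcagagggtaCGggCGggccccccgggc
Hymai: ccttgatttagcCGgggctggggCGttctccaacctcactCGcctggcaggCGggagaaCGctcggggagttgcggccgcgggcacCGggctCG
Tmem267: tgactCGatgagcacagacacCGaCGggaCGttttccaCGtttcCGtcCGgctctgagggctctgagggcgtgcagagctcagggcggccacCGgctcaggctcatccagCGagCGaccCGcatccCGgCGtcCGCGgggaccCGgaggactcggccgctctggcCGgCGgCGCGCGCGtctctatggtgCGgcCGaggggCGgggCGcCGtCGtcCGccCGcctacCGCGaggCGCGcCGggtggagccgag
Csf2ra: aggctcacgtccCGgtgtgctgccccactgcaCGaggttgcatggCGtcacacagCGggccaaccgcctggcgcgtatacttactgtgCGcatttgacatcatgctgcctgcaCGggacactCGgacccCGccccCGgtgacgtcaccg

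The 616 windows touched 715 genes and held 6862 positions at 5980 CpGs, 882 of them read on both strands. Merging adjacent windows left 589 separate stretches. A window held a median of 8 positions, against 19 in weakly and 6 in highly methylated gene-end windows. Coverage summed over the positions of a window had a median of 352.5 to 494.5 per library. In such sums a read counts at each position it covers. Of the 899 measured positions that fell in a RefSeq promoter, 899 carried the C or G that the file's strand calls for.

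The windows stood between the other gene-end classes in where they lay. The nearest gene end was a start in 327 windows (53.1%), a finish in 146 (23.7%) and of unknown kind in 143, where the tables used here give no strand. A start was nearest in 74.8% of weakly methylated windows, while a finish was nearest in 48.4% of highly methylated ones. The nearest gene was a lncRNA gene in 26.1% of the windows, against 12.4% of weakly and 27.4% of highly methylated windows. Of 243 windows with a measured neighbour, 170 lay beside a weakly methylated window, 61 beside another partly methylated one and 17 beside a highly methylated one. They made up between 1.89% (chromosome 16) and 5.89% (chromosome 7) of the gene-end windows of a chromosome.

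The promoters that overlapped these windows held fewer CpGs by the median than those of weakly methylated windows. Promoter sequences lacked chromosome 18. Of the 592 windows elsewhere, 206 (34.8%) overlapped a promoter, against 61.3% of weakly and 17.9% of highly methylated windows. The 233 RefSeq promoters of 300 bases that overlapped these windows had a median GC content of 60.7% and 14 CpGs. Promoters in weakly methylated windows had 64.7% and 25 CpGs, those in highly methylated windows 55% and 9, and all promoters outside chromosome 18 53% and 7. Matches were counted on both strands, and none of the 4 motifs holds another. The letters TGCCGC were in 11.6% of these promoters, against 23.4% in weakly methylated windows, 11.6% in highly methylated windows and 11.6% of all promoters. CCGGAA was in 20.6%, against 30.0, 14.4 and 15.1%, AGATAA in 8.58%, against 4.16, 8.22 and 11.2%, and TGACTCA in 3.43%, against 2.69, 8.22 and 5.26% of the same classes. These are descriptions of letters, with no test.

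The level of a window depended on the library. Median levels were 38.5% in KI LT-HSC against 33.5% in Control LT-HSC, 44.5% in KI ST-HSC against 34.2% in Control ST-HSC, and 44.0% in KI MPP against 39.6% in Control MPP. Single positions followed the same order of genotypes at the low end. Positions under 20% made up 30.5% in KI LT-HSC against 37.8% in Control LT-HSC, 23.2% in KI ST-HSC against 34.1% in Control ST-HSC, and 22.9% in KI MPP against 35.8% in Control MPP. Positions over 80% made up 14.5 against 12.7% in KI and Control LT-HSC, 17.2 against 10.3% in KI and Control ST-HSC, and 18.9 against 18.9% in KI and Control MPP.

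Of the 6 libraries, Control MPP had the largest share of positions at exactly 0 or 100% and of CpGs whose strands differed widely. There, 32.8% of positions were at exactly 0 or 100%, against 9.39% in KI MPP, and the strands of a CpG differed by more than 25 points at 35.9% of the CpGs read on both, against 13.3% in KI MPP. For LT-HSC the share at exactly 0 or 100% was 12.01% in KI against 20.4% in Control, and for ST-HSC 9.79% in KI against 13.04% in Control. The strands differed by more than 25 points at 23.4% of these CpGs in KI LT-HSC against 28.5% in Control LT-HSC. For ST-HSC the shares were 15.8% in KI against 20.3% in Control. On both measures Control was higher than KI in each cell type. The part of these differences in the results below was not tested.

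**Figure D1:**
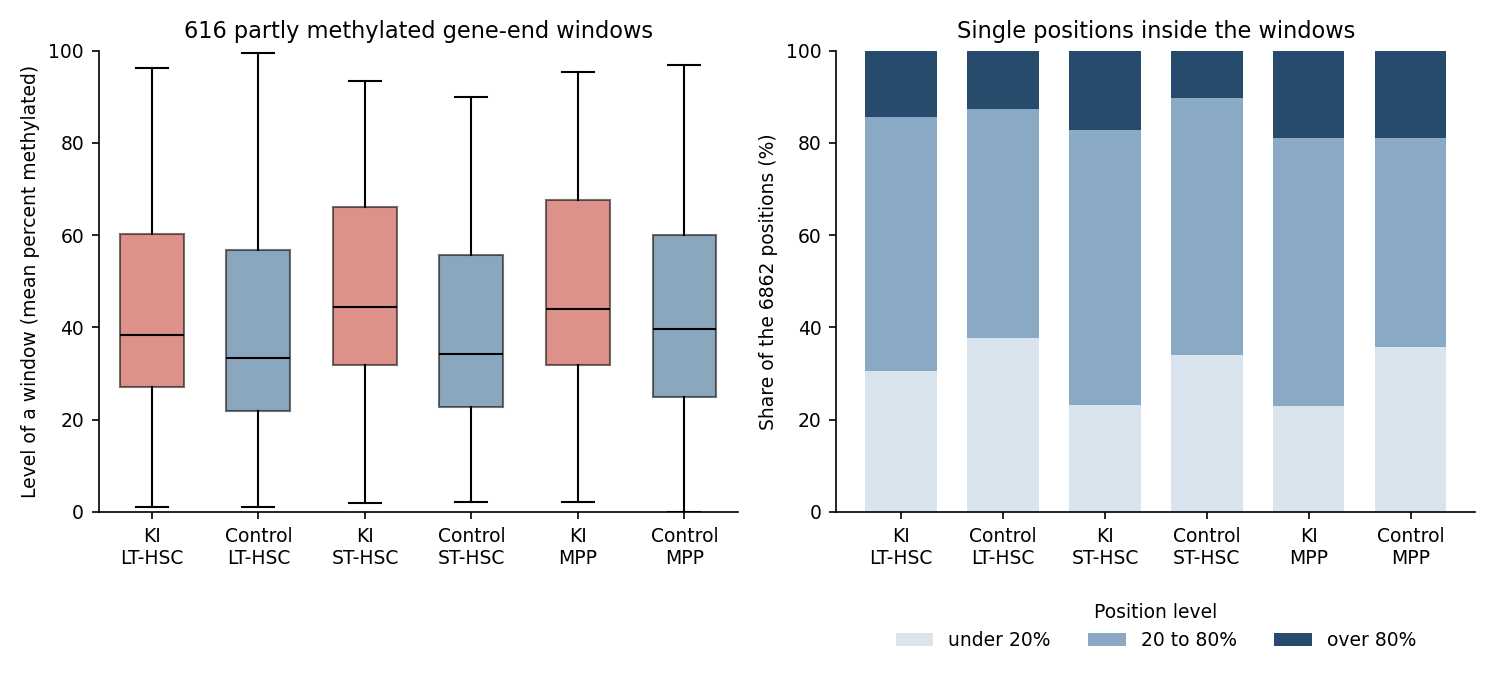
Left, level of each of the 616 windows (mean percent methylated over its positions) in the 6 libraries, KI in red and Control in blue: boxes span the quartiles, lines mark the medians, and whiskers reach the farthest window within 1.5 box lengths. Right, share of the 6862 positions under 20%, at 20 to 80% and over 80% in each library. Medians are 38.5, 44.5 and 44.0% in KI against 33.5, 34.2 and 39.6% in Control for LT-HSC, ST-HSC and MPP.

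Whether the Idh1 knock-in changed methylation was asked within each cell type. In these windows KI was higher than Control in all 3 cell types by the median: 3.99 percentage points in LT-HSC (quartiles -2.33 to 12.2), 8.15 in ST-HSC (1.95 to 15.6) and 5.91 in MPP (-1.78 to 14.5). Differences of 10 points or more were counted too. In LT-HSC 196 windows (31.8%) were higher and 67 (10.9%) lower in KI by that much, against 3.76% and 1.63% of all windows. In ST-HSC 268 (43.5%) were higher and 23 (3.73%) lower, against 5.08% and 0.666% of all, and in MPP 238 (38.6%) were higher and 60 (9.74%) lower, against 5.46% and 1.72% of all. Over all 24778 windows the medians were 0, 0.701 and 1.18 points.

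Weakly methylated gene-end windows differed by medians of -0.139, 0.555 and 1.26 points, and highly methylated ones by 0, 0.882 and -0.238. Partly methylated windows away from gene ends had medians of 4.28, 8.75 and 5.72 points, close to those at gene ends. The rule bears on the size of these medians, since a window that differs widely between libraries cannot have a mean near 0 or 100%. When windows were instead chosen by the 4 libraries of the other 2 cell types, the medians were 3.86 points in LT-HSC (n = 640), 8.13 in ST-HSC (n = 614) and 6.13 in MPP (n = 600). These 4 libraries include KI libraries, so a window higher in KI in each cell type can still enter through KI. This choice is therefore not independent of genotype. Windows nearest to a start had medians of 3.86, 7.83 and 5.54 points and those nearest to a finish 4.33, 7.86 and 6.32 points.

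**Figure D2:**
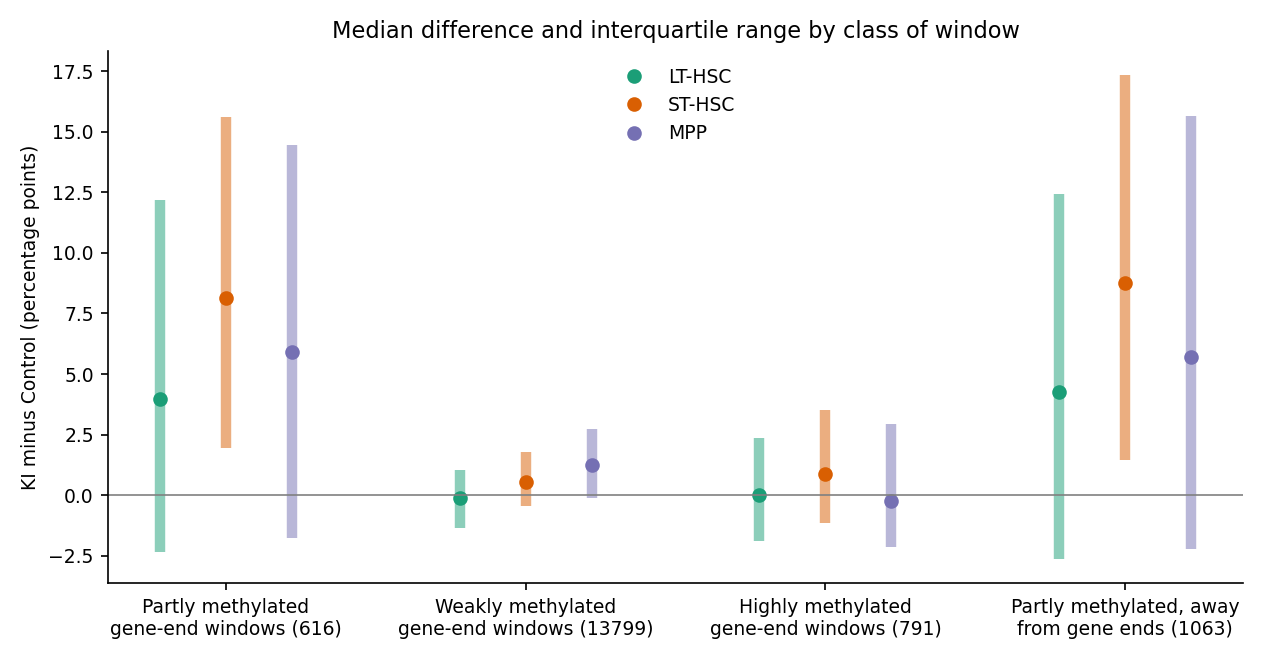
KI minus Control (percentage points) in 4 classes of window, by cell type: dots are medians over windows and bars span the quartiles, and the line at 0 marks no difference. The medians of partly methylated windows lie between 3.99 and 8.15 points at gene ends and between 4.28 and 8.75 points away from them, and those of the other classes between -0.238 and 1.26.

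Within the windows, positions were sorted by their level in the 4 libraries of the other 2 cell types. Both genotypes are among these libraries, so the sorting is not independent of genotype. At positions of 20 to 80%, the mean was 43.5% in KI against 38.5% in Control LT-HSC (4305 positions), 51.6 against 40.4% in KI and Control ST-HSC (4293) and 52.6 against 45.6% in KI and Control MPP (4301). At positions under 20% KI exceeded Control by means of 2.05 (LT-HSC), 5.38 (ST-HSC) and 4.36 points (MPP), with medians of 0, 2.80 and 3.85. At positions over 80% the means were 5.53, 6.63 and 5.83 points and the medians 0, 4.12 and 0.

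Some windows were higher in KI in every cell type. At least 10 points higher in KI in all 3 cell types were 75 windows (12.2%), against 0.9% of all windows, and 6 windows (0.974%) were at least 10 points lower, against 0.0525% of all. Among the other classes the share higher was 10.5% of partly methylated windows away from gene ends, 0.123% of weakly and 0.253% of highly methylated gene-end windows. The 3 KI levels lay wholly above the 3 Control levels in 151 windows (24.5%), against 11.2% of all windows, and wholly below in 12 (1.95%), against 2.27% of all. Read against these backgrounds, windows with KI above Control were more common here than over all windows by both counts. Windows at least 10 points lower in KI were also more common here, while those with KI wholly below were not. By any size, KI was higher in all 3 cell types in 262 windows (42.5%), against 22.1% of all, and lower in 25 (4.06%), against 6.35% of all. The rule that sets the level also bears on these shares.

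Reads could be compared within each pair of libraries by Fisher's exact test (two-sided, adjusted by Benjamini-Hochberg over all windows, called at an adjusted p under 0.01 and at least 10 points). This compares 2 libraries, not the conditions, and covers counting error only. Counts were summed over the positions of a window, so a read over several positions counted at each. The p-values therefore understate even that error. It called 166 windows higher and 47 lower in KI LT-HSC, against 3.18% and 1.28% of all windows. In ST-HSC it called 219 higher and 16 lower, against 4.08% and 0.456% of all. In MPP it called 194 higher and 44 lower, against 4.74% and 1.29% of all. Called in all 3 cell types were 57 windows higher in KI, against 0.67% of all windows, and 6 lower, against 0.0444% of all.

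With the cell types as the only repeats, limma (adjusted p under 0.05, Benjamini-Hochberg over all windows, 2 residual degrees of freedom) called 0 windows higher in KI, with 0% of all windows called, and 2 lower, with 0.00807% of all. At an unadjusted p under 0.05 it had 126 windows higher in KI, against 6.03% of all windows, and 8 lower, against 0.977% of all. The 2 called were all that limma called among the 24778 windows, and they adjoin each other at the start of the lncRNA gene Gm51701.

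Gm51701 was the clearest case of lower methylation in KI. In the first window (chromosome 9, 123924001 to 123925000, 17 positions) the levels were 1.57% in KI LT-HSC, 1.99% in KI ST-HSC and 2.07% in KI MPP, against 64.7, 62.5 and 73.4% in the same order in Control. In the next (from 123925001, 8 positions) they were 3.78, 3.97 and 4.23% in KI, against 59.3, 46.5 and 53.0% in Control. The genotypes did not overlap in either window, and each was partly methylated only through Control. In limma the log2 odds of a methylated read differed by -6.20 (SE 0.360, adjusted p = 0.00882) and -4.76 (SE 0.349, adjusted p = 0.0237), KI minus Control. Neither call was made without both LT-HSC libraries, without a variance trend or after thinning to 10 reads per position.

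The other 4 windows lower in KI throughout were smaller or less even. LOC115486519, a lncRNA gene (5 positions), had 43.1, 56.2 and 66.4% in KI LT-HSC, ST-HSC and MPP, against 74.8, 90.0 and 96.9% in Control. At Asb4, an ankyrin repeat gene of the imprinted Peg10 cluster (5 positions), KI had 3.76, 6.05 and 9.38%, against 44.2, 40.9 and 24.3% in Control. Both showed no overlap between genotypes. Slc22a29, of the organic anion transporter family, had 10.7, 9.94 and 12.9% in KI, against 24.0, 40.8 and 26.9% in Control, again with no overlap. Nacad, which carries a domain of the nascent polypeptide-associated complex, had 69.0, 69.0 and 73.3% in KI, against 82.2, 80.03 and 88.2% in Control, with no overlap. By limma these 4 had adjusted p-values between 0.333 and 0.627. Asb4 and Slc22a29 were partly methylated only through Control, and Nacad only through KI. LOC115486519, with a Control mean over 80%, also passed only through KI.

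The 75 windows higher in KI throughout lay at 90 genes on 19 chromosomes. Their mean rise over the cell types had a median of 20.5 points and ran between 11.3 and 42.3. The nearest gene was protein-coding in 55 and a lncRNA gene in 20, and the nearest end a start in 35, a finish in 15 and unknown in 25. In 57 of them every KI library was above every Control library. All 3 Control levels were under 20% in 13, so that these were partly methylated only through KI. Windows with only their Control mean under 20%, such as those of Gm32822 and Sox7, also passed only through KI. They are not among the 13. By limma their adjusted p-values were between 0.141 and 0.794.

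Among the 10 with the largest mean rise, the window at the finish of the lncRNA gene 2810410L24Rik (chromosome 11, from 120185001, 13 positions) had 29.1, 50.9 and 70.02% in KI LT-HSC, ST-HSC and MPP, against 6.17, 5.91 and 11.1% in Control. KI was higher by 42.3 ± 18.1 points (SD over 3 cell types), and limma gave a log2 difference of 3.60 (SE 0.363, adjusted p = 0.141). The Control levels hardly moved between cell types, while KI was higher in each later one, and the window was partly methylated only through KI.

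Rfx8, of the RFX transcription factor family, had 2 adjacent windows over its start. The one from 39720001 had 42.4, 46.3 and 56.0% in KI LT-HSC, ST-HSC and MPP, against 10.7, 13.6 and 9.73% in Control, and the one from 39721001 had 28.7, 36.9 and 54.6% in KI, against 2.61, 6.47 and 2.92% in Control. In the Rfx8 stretch printed above, 9 CpGs within 33 bases of the start averaged 26.7, 34.4 and 53.2% in KI, against 3.35, 6.75 and 2.64% in Control. Both windows were partly methylated only through KI. Averaged over cell types, 9 of 9 CpGs were higher in KI, by between 19.19 and 43.0 points. In LT-HSC the last of them, 15 bases inside the gene, was at 14.6% in KI against 17.3% in Control.

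Creb3l4, a bZIP transcription factor held in the endoplasmic reticulum, had 6 measured CpGs, all in the stretch printed above. The window had 78.7, 64.9 and 62.9% in KI LT-HSC, ST-HSC and MPP, against 24.5, 49.3 and 25.8% in Control. KI was higher by 35.7 ± 19.3 points (SD over 3 cell types), with no overlap between genotypes. The CpG 96 bases before the start had the largest difference, with a mean over cell types of 88.5% in KI against 40.9% in Control, and the one farthest from the start, 160 bases before it, the smallest, at 63.1% in KI against 43.3% in Control.

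Of the remaining 6 windows of these 10, 3 were at lncRNA genes, Gm10561, Gm34657 and Gm32822, and that of Hoxa5 and Hoxa6 is given with the HOX genes. Gm10561 had 61.8, 77.8 and 72.6% in KI LT-HSC, ST-HSC and MPP, against 30.8, 38.2 and 28.5% in Control. LOC102637806, annotated as protein-coding, had 77.8, 71.0 and 69.98% in KI, against 47.9, 38.8 and 25.8% in Control. Gm34657 had 52.9, 74.8 and 73.4% in KI, against 8.12, 47.3 and 50.5% in Control. In all 3 the genotypes did not overlap. Gm32822 had 38.4, 56.8 and 48.2% in KI, against 14.4, 8.88 and 27.4% in Control. Its Control mean was under 20%, so it was partly methylated only through KI. The mean rise at Gm32822 was 30.9 points but 15.9 at a coverage of at least 20 reads. The window shared by Psd2, an exchange factor for ARF proteins, and Nrg2, a growth factor of the neuregulin family, had 66.6, 52.7 and 39.2% in KI, against 37.8, 12.6 and 17.4% in Control.

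**Figure D3:**
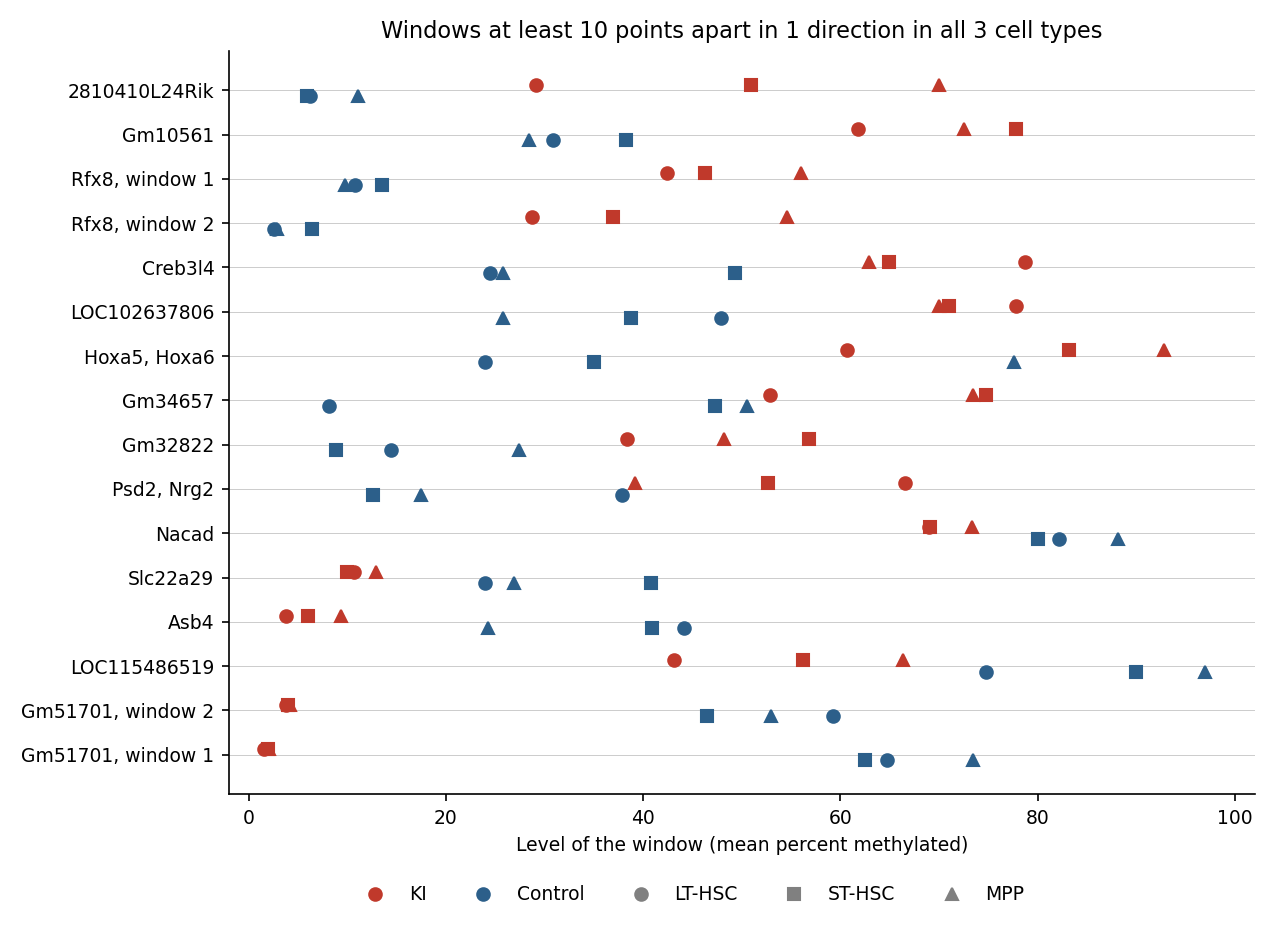
Level (mean percent methylated) of 16 windows that differ by 10 points or more, the same way in each cell type, KI in red above Control in blue within each row, with circles for LT-HSC, squares for ST-HSC and triangles for MPP. These are the 10 with the largest mean rise and the 6 lower in KI; in both Gm51701 windows KI is at 1.57 to 4.23% and Control at 46.5 to 73.4%.

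The HOXA cluster gave 4 of the 8 members at HOX genes, the homeobox genes that set position along the body axis and that are active in stem and progenitor cells. The window from 52203001 on chromosome 6, at the ends of Hoxa5 and Hoxa6 (6 positions), had 60.6, 83.2 and 92.8% in KI LT-HSC, ST-HSC and MPP, against 24.0, 35.0 and 77.6% in Control. The next, from 52204001 (26 positions), had 23.7, 78.6 and 88.1% in KI, against 18.2, 40.1 and 76.4% in Control. At Hoxa6 the window from 52208001 (30 positions) had 20.3, 35.8 and 35.5% in KI, against 13.2, 11.9 and 20.8% in Control, and the one from 52209001 (5 positions) had 14.5, 40.5 and 48.8% in KI, against 10.2, 16.6 and 35.4% in Control. In these 4 windows KI was above Control in each cell type and MPP above LT-HSC in each genotype. The Hoxa6 window from 52208001 had a Control mean under 20%, so it was partly methylated only through KI.

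The Hoxa6 promoter stretch printed above lies in the window from 52208001 and is its weakly methylated side. Its 10 measured CpGs averaged 8.99, 18.7 and 12.4% in KI LT-HSC, ST-HSC and MPP, against 1.75, 2.59 and 2.76% in Control. The CpG 177 bases before the start differed most of the 10, at 26.3, 35.9 and 23.8% in KI and at 0% in each Control library. Averaged over cell types, the others were higher in KI by between 4.90 and 16.5 points.

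The other 4 HOX members did not share that order. Hoxb1 had 52.0, 52.5 and 27.8% in KI LT-HSC, ST-HSC and MPP, against 24.3, 29.4 and 24.8% in Control. Hoxb2 had 6.88, 15.3 and 42.1% in KI, against 15.2, 19.04 and 25.03% in Control. Hoxd9 had 34.0, 30.3 and 40.1% in KI, against 41.8, 29.9 and 29.6% in Control, and Hoxc6 had 16.95, 33.0 and 29.1% in KI, against 40.9, 28.9 and 21.1% in Control. Of 67 gene-end windows at HOX genes, 56 were weakly methylated, 8 partly and 3 highly.

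By the median, the windows were more methylated in the progenitors than in the long-term stem cells. In KI they were higher in MPP than in LT-HSC by a median of 4.16 points (quartiles -1.83 to 11.9) and in Control by 2.69 (-6.70 to 12.3). ST-HSC exceeded LT-HSC by a median of 4.20 points in KI and 0.164 in Control. Partly methylated windows away from gene ends had medians of 4.16 points in KI and 2.95 in Control, while weakly methylated gene-end windows differed between MPP and LT-HSC by medians of 1.17 points in KI and -0.257 in Control. When windows were chosen by the 2 ST-HSC libraries alone (n = 632), the medians were 3.92 points in KI and 2.30 in Control.

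At least 10 points higher in MPP in both genotypes were 85 windows (13.8%), against 1.43% of all windows, and 18 (2.92%) were at least 10 points lower, against 0.359% of all. Of partly methylated windows away from gene ends 17.6% were that much higher in MPP and 4.8% lower, and of weakly methylated gene-end windows 0.116% higher. The rule that sets the level used these same libraries and bears on the shares here and below. Most of all windows are weakly methylated, with little room to differ by 10 points. In 36 windows (5.84%) MPP was at least 10 points higher than LT-HSC in KI and at least 10 points lower in Control, against 0.436% of all windows, and in 7 the other way round, against 0.161% of all. Fisher's exact test on the reads called 159 windows higher and 33 lower in KI MPP, against 3.26% and 0.759% of all windows, and 152 higher and 85 lower in Control MPP, against 4.14% and 2.76% of all. Both genotypes shared 67 windows called higher, against 1.13% of all, and 15 called lower, against 0.214% of all. In 51 windows (8.28%), against 0.888% of all, Fisher's test gave calls in opposite directions, either for the genotypes in different cell types or for MPP against LT-HSC in the genotypes. By limma 0 windows were called higher, with 0% of all windows, and 0 lower. At an unadjusted p under 0.05 there were 68 higher, against 5.34% of all windows, and 21 lower, against 2.08% of all.

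Among the 5 largest positive differences between MPP and LT-HSC, Lhcgr, the receptor of luteinizing hormone, had 1.14, 29.4 and 56.2% in LT-HSC, ST-HSC and MPP of KI mice, and 10.2, 14.7 and 73.1% in Control. In the Lhcgr stretch printed above each of the 6 CpGs, which lie 22 to 66 bases before the start, was at 46.7% or more in both MPP libraries and at 0 to 35.0% in both LT-HSC libraries. Kcnk12, a tandem-pore potassium channel subunit, had 8.59, 32.7 and 68.0% in KI and 2.07, 15.6 and 40.05% in Control. The window of Hoxa5 and Hoxa6 from 52204001 was higher in MPP by 64.4 points in KI and by 58.2 in Control. Colca2 had 11.3, 61.2 and 49.1% in KI and 17.6, 35.3 and 77.5% in Control. The lncRNA gene Gm12843 had 49.3, 52.2 and 70.1% in KI and 12.1, 52.9 and 92.8% in Control.

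Windows lower in MPP were led by Fam83a, a gene of the FAM83 family linked to growth factor signalling, with 96.2, 63.3 and 42.4% in LT-HSC, ST-HSC and MPP of KI mice, and 99.6, 48.8 and 11.3% in Control. Tspoap1, which binds the translocator protein, had 70.8, 41.6 and 37.3% in KI and 55.9, 26.5 and 11.96% in Control. Tmc8, a transmembrane channel-like gene, had 72.6, 38.1 and 27.7% in KI and 37.9, 15.8 and 7.79% in Control. Cfap45, which codes for a protein of cilia and flagella, had 66.5, 51.9 and 31.7% in KI and 61.6, 46.5 and 16.2% in Control, and Eif4g3, a scaffold of translation initiation, had 45.9, 33.8 and 27.0% in KI and 49.0, 20.9 and 11.2% in Control. In these 5 windows both genotypes kept the order LT-HSC, ST-HSC, MPP from high to low. Tspoap1 and Tmc8 were also among the 75 windows higher in KI throughout.

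**Figure D4:**
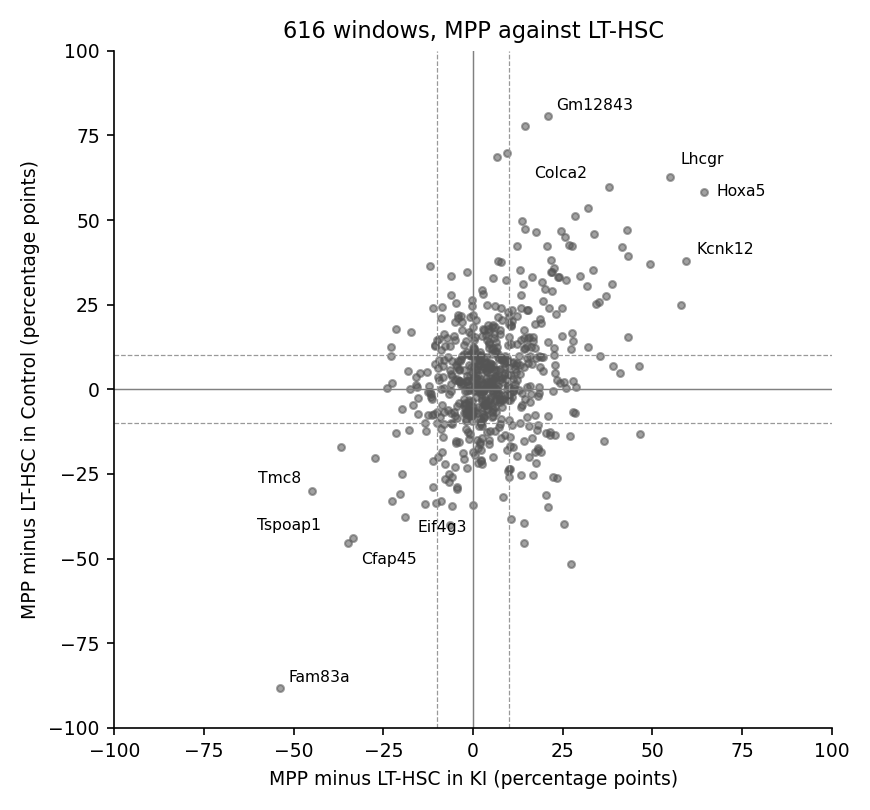
MPP minus LT-HSC (percentage points) in each of the 616 windows, KI on the horizontal and Control on the vertical axis, with dashed lines at 10 points and names for the 5 largest rises and falls shared by both genotypes. In the upper right corner beyond the dashed lines are 85 windows and in the lower left 18, and 36 lie at the lower right.

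A mean of 20 to 80% could come from different arrangements of single CpGs. In 97 windows (15.7%) every position was itself at 20 to 80% over the 6 libraries. In 130 windows (21.1%) at least 1 position under 20% stood in the same window as 1 over 80%, and the remaining 389 were in between. Over all 6862 positions, 64.2% were at 20 to 80%. The even windows had the widest spread between libraries: their range over the 6 libraries had a median of 33.3 points, against 15.4 in windows with low and high positions and 21.5 in the others. A position that differs widely between libraries also has a mean between the limits, so this spread is not independent of the sorting. In even windows the median differences between KI and Control were 6.96 (LT-HSC), 14.6 (ST-HSC) and 3.41 points (MPP), and 18 of 97 were at least 10 points higher in KI in all 3 cell types. In windows with low and high positions the medians were 3.10, 5.66 and 4.33 points, and 7 of 130 were that much higher.

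Windows with low and high positions were mostly divided once. In 108 of the 130 a single boundary separated all low from all high positions, with a median gap of 236.5 bases. Positions between the limits were left out of this count. The 130 windows held 640 low and 347 high positions, and with so few per window a single boundary can arise easily. How often it would arise without a true step was not tested. At 56 of 66 such windows nearest to a gene start the low positions lay nearer to it, at a median of 382.5 bases against 716 for the high ones. At 34 windows nearest to a gene finish the low positions were nearer in 13.

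Csf2ra, the alpha chain of the receptor for the growth factor GM-CSF, had no position under 20%, but in the stretch printed above fully methylated CpGs stood beside partly methylated ones. The 2 CpGs 185 and 142 bases before the start were at 100% in each library, while those 101 and 95 bases before it averaged 31.8 and 33.9% in KI against 31.8 and 60.9% in Control. The window as a whole stayed at 70.3 to 77.2% in the 6 libraries. At the start shared by Tmem267 and the lncRNA gene 3110070M22Rik, the window (57 positions) had 56.99, 65.0 and 64.2% in KI LT-HSC, ST-HSC and MPP, against 61.4, 58.3 and 50.3% in Control. Coverage summed over the positions of the window had a mean of 9434 per library. There the first 7 CpGs printed above, 202 to 245 bases before the start, averaged 10.0 to 20.7% in KI and 12.4 to 25.1% in Control. Single libraries differed more at these 7, with 1.12 to 11.5% in KI LT-HSC against 20.8 to 42.9% in Control LT-HSC. The next CpG, 158 bases before the start, averaged 91.3% in KI and 72.8% in Control. It had at least 104 reads in each library, while the first CpG had as few as 18. A single CpG 38 bases before the start averaged 7.71% in KI and 4.10% in Control, between CpGs at 59.0 and 71.3% in KI and 61.2 and 76.2% in Control.

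**Figure D5:**
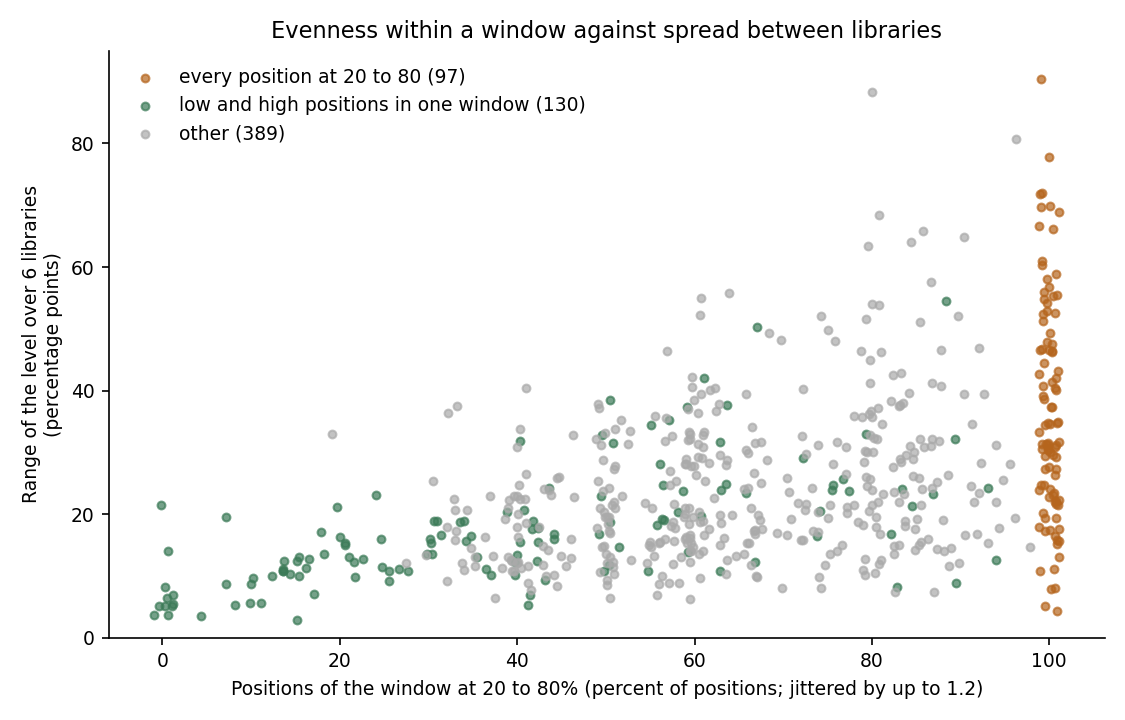
Range of the level over the 6 libraries (percentage points) against the share of a window's positions at 20 to 80%, for 616 windows: brown, every position at 20 to 80% (97); green, low and high positions in one window (130); grey, other (389). The horizontal values are jittered. Median ranges are 33.3, 15.4 and 21.5 points.

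The windows that varied least, among those with at least 10 positions, were mostly made of low and high positions. The lncRNA gene Gm36388 stayed at 26.4 to 29.2% over the 6 libraries, Sirt7 with Pcyt2 at 36.5 to 39.97%, Babam1 at 58.0 to 61.7%, Asb6 at 25.9 to 31.0% and Kctd11 with Acap1 at 51.8 to 56.97%. Of the 8 least variable windows, 7 had between 0 and 14.3% of their positions at 20 to 80%, and the exception was Plagl1. Sirt7 is a deacylase of the sirtuin family, Babam1 a subunit of the BRCA1-A complex, and Kctd11 an adaptor of cullin ubiquitin ligases. Vav1, the blood-cell exchange factor whose promoter drives the Cre transgene of both genotypes, had 24.2, 27.8 and 27.3% in KI LT-HSC, ST-HSC and MPP, against 27.6, 25.9 and 29.3% in Control at its own start, with 0% of its 8 positions at 20 to 80%.

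Imprinted genes gave more members than any other of the 15 gene lists, 17 of their 47 measured gene-end windows (36.2%), at 15 genes of the list, against 4.05% of all gene-end windows. The remaining windows were weakly methylated in 26 and highly methylated in 4. These 17 windows had a median level of 36.8%, and in 10 of them every position was at 20 to 80%, against 97 of all 616. They differed between libraries by a median range of 22.04 points, against 21.4 over all 616. The median differences, KI minus Control, were 2.93 (LT-HSC), 1.94 (ST-HSC) and -1.72 points (MPP), against 3.99, 8.15 and 5.91 over all members. The difference between these medians was not tested.

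The steadiest imprinted window was that of Plagl1, a zinc finger gene expressed from the paternal copy, with its transcript Hymai from the same start. From 13090001 on chromosome 10 (18 positions) it had 42.6, 40.9 and 41.0% in KI LT-HSC, ST-HSC and MPP, against 41.4, 45.3 and 45.3% in Control. The adjacent window from 13091001 (20 positions) had 51.1, 48.0 and 41.2% in KI, against 42.4, 49.9 and 57.1% in Control. The 7 CpGs of the Hymai stretch printed above were less steady, with means of 38.0, 46.7 and 23.7% in KI, against 19.05, 47.6 and 51.9% in Control.

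Magel2 (23 positions), a paternally expressed gene of the Prader-Willi region, had 40.7, 39.8 and 41.3% in KI LT-HSC, ST-HSC and MPP, against 37.8, 36.4 and 53.2% in Control. Its neighbour Mkrn3 (18 positions), a makorin ubiquitin ligase, had 36.5, 41.2 and 28.7% in KI, against 45.2, 27.7 and 18.7% in Control. Peg12 had 17.6, 19.05 and 23.8% in KI, against 30.7, 25.6 and 25.5% in Control over 46 positions. At Magel2 and Mkrn3 the order of the genotypes changed with the cell type, while at Peg12 Control was the higher one in each. A second Peg12 window (13 positions) had 30.6, 21.3 and 19.03% in KI, against 16.04, 19.4 and 14.6% in Control.

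Nap1l5, Peg3, Peg13, Gnas and Peg10 varied more. Nap1l5 had 50.8, 61.0 and 60.3% in KI LT-HSC, ST-HSC and MPP, against 11.3, 36.4 and 81.0% in Control, the widest range of the imprinted windows at 69.7 points. The ranges over the 6 libraries were 40.4 points at Peg3, 35.0 at Peg13, 31.4 at Gnas and 29.4 at Peg10.

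Igf2r, the maternally expressed receptor that clears IGF2, had 46.4, 42.6 and 31.0% in KI, against 35.6, 50.4 and 28.3% in Control. Cdkn1c, the cell cycle inhibitor p57, which is known to keep haematopoietic stem cells quiescent, had 39.0, 29.5 and 38.7% in KI LT-HSC, ST-HSC and MPP, against 20.3, 31.6 and 23.1% in Control over 38 positions, and 37.4, 29.2 and 41.3% in KI, against 38.5, 30.4 and 44.3% in Control in its second window. Zrsr1, a paternally expressed splicing factor gene, was the imprinted gene at least 10 points higher in KI in all 3 cell types, with 53.6, 58.4 and 33.1% in KI, against 32.5, 29.3 and 1.54% in Control over 6 positions. In its adjacent window (17 positions) it had 17.4, 34.6 and 36.2% in KI, against 39.3, 32.2 and 20.6% in Control.

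Germline genes, which blood cells silence by methylation, were mostly highly methylated: of 23 measured windows 14 were over 80%, 6 under 20% and 3 between. Hormad2, a protein of meiotic chromosomes, had 71.0, 81.2 and 81.1% in KI LT-HSC, ST-HSC and MPP, against 69.7, 68.7 and 76.5% in Control. Meioc, which prolongs meiotic prophase, had 64.5, 73.9 and 74.3% in KI, against 73.9, 77.1 and 74.8% in Control, and the piRNA factor Tdrd1 had 72.7, 83.1 and 72.1% in KI, against 74.5, 61.5 and 84.4% in Control. Among the members with the most positions were further genes used in germ cells. Rbm46 (66 positions) had 32.3, 39.3 and 35.9% in KI, against 36.5, 33.7 and 39.7% in Control. Rbmxl2 (66 positions) had 46.8, 53.7 and 48.8% in KI, against 44.9, 44.7 and 47.5% in Control, and the kinase gene Tssk3 (55 positions) had 28.8, 35.6 and 31.5% in KI, against 29.3, 28.6 and 30.9% in Control.

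The member with the most positions, AY036118 (87), is uncertain. Coverage summed over positions had a mean of 264860 and 72567 per library in the windows there, against medians of 352.5 to 494.5 over the members. AY036118 overlaps Rn18s-rs5, a gene model of a repeated ribosomal RNA, so that the authors' mapping could split or pool the reads of copies. It had 24.9, 24.1 and 22.7% in KI LT-HSC, ST-HSC and MPP, against 31.5, 28.9 and 27.1% in Control.

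Of 18 measured windows at myeloid genes 2 were members (11.1%), of 37 at lymphoid genes 3 (8.11%), and of 24 at erythroid and megakaryocyte genes 0, against 4.05% of all gene-end windows. Counts this small are given as a description. Prtn3, the neutrophil proteinase 3, had 24.8, 26.3 and 38.8% in KI LT-HSC, ST-HSC and MPP, against 25.1, 27.1 and 36.8% in Control. Id2, an inhibitor of helix-loop-helix factors needed for innate lymphoid and NK cells, was higher in KI in each cell type, with 27.2, 33.2 and 35.3% in KI, against 16.6, 15.4 and 13.3% in Control and no overlap. The Id2 window was partly methylated only through KI. Tbx21, the T-bet factor of T helper cells, had 29.9, 33.6 and 37.6% in KI, against 33.1, 41.9 and 24.3% in Control, and Tcf7, the T cell factor also active in stem cells, had 12.1, 15.8 and 26.4% in KI, against 44.9, 18.8 and 5.43% in Control over 5 positions. Gfi1b, a repressor of erythroid and platelet development, shares its window with the lncRNA gene Gm52548, with 37.7, 47.3 and 71.0% in KI, against 28.0, 12.96 and 63.2% in Control. Besides it the stem cell list held only the pair of Cdkn1c windows among its 48.

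Markers of other marrow cells gave 2 members of 11 measured windows. Tagln, a smooth muscle and stromal gene, had 50.4, 61.2 and 65.9% in KI LT-HSC, ST-HSC and MPP, against 35.1, 39.1 and 50.6% in Control. The bone factor Sp7 had 21.9, 30.6 and 28.6% in KI, against 11.5, 17.96 and 80% in Control. The median level of the 11 windows was 4.61, 7.67 and 8.57% in KI, against 6.86, 4.79 and 5.49% in Control, and the part of other cells in the results was not tested.

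The list of methylation, IDH and other 2-oxoglutarate enzymes had 3 members of 74 windows (4.05%), equal to the share of all gene-end windows. A window of Kdm6b, a histone H3K27 demethylase, had 43.7, 63.1 and 50.7% in KI LT-HSC, ST-HSC and MPP, against 32.9, 29.2 and 70.7% in Control, and another, shared with Dnah2, had 31.9, 28.0 and 27.6% in KI, against 8.51, 25.7 and 29.4% in Control. The window of P3h3, a prolyl 3-hydroxylase, shared with Gpr162, had 87.4, 86.0 and 86.8% in KI, against 73.9, 74.7 and 66.4% in Control, with no overlap. It was partly methylated only through Control. DNA damage genes had 1 member of 62, at Mutyh, tumour suppressor and WNT genes 4 of 78 (5.13%), and interferon genes 1 of 18. Among these, Sox7 had 45.4, 35.3 and 23.9% in KI, against 24.9, 20.4 and 12.05% in Control. Its Control mean was under 20%, so it was partly methylated only through KI. Dkk3, an antagonist-family gene of WNT signalling, had 35.2, 55.5 and 41.0% in KI, against 32.1, 33.6 and 33.2% in Control. Oasl1, an interferon-induced gene, had 17.2, 21.3 and 31.7% in KI, against 34.1, 35.9 and 31.3% in Control. Homeobox and PAX genes outside the HOX clusters had 5 of 195. Of these, Alx4 was at least 10 points higher in KI in all 3 cell types, with 39.8, 53.9 and 31.8% in KI, against 25.7, 29.0 and 15.5% in Control.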

How the data were processed

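Methylation was measured by eRRBS on 10 ng of DNA per library. Per the submitters' processing notes, Bismark 0.10.0, SAMtools 1.0, methylKit 0.9.1 and build mm10 were used. Settings, duplicate removal and bisulfite conversion rate: not given in the sources used here. Coverage in the deposited files counts reads at each cytosine position (at least 10), and the deposited methylation values are the percent of reads with C or T, per the file headers. Methylated reads, coverage times percent, were whole numbers at 100% of positions within 0.01% of the coverage. Coverage summed over positions ran between 38284759 and 53884467 per library (medians of 27 to 45 per position). In these sums a read counts at each position it covers, so they are not numbers of reads. On chromosomes 1 to 19, 546791 positions were in all 6 libraries. Without molecular identifiers these counts overstate precision.

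A window's level was the mean over its shared positions. Summed reads were tested with Fisher's exact test (SciPy 1.17.1) and, as log2((methylated + 1)/(unmethylated + 1)) with cell type and genotype as terms, with limma 3.58.1 in R 4.3.3; both were tested on simulated data. With 1 library per group, limma p-values measure only the spread between these libraries, and Fisher p-values only counting error. Fisher p-values understate that error, since a read over several positions of a window counts at each. RefSeq tables gave strand for 25747 of 33069 genes. The members and gene lists were chosen with earlier results of these data known. Named are windows called by limma, the 10 largest mean rises and falls between genotypes among windows 10 points apart in all 3 cell types, the 5 largest between MPP and LT-HSC, up to 6 per gene list by positions, the 8 least variable with at least 10 positions, those nearest the limits, and the 5 with most positions; further windows of the imprinted and HOX lists, and those of Fam110a and Trim47, were added after their values were seen; 1 list is not reported here. Alternatives were coverage, positions, thinning to 10 reads, summed reads, level limits, distance, size of difference, prior count, trend, cell type term and leaving out cell types.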

Additional observations from a re-analysis of the deposited data

Results flagged for a closer look

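Fisher's exact test on the reads called 51 windows (8.28%), against 0.888% of all windows, in opposite directions in different groups, either for KI against Control in different cell types or for MPP against LT-HSC in the 2 genotypes. Of these, 9 are among the named windows and those of the gene lists and are given here. With 1 library per group the difference between these differences was not tested. The part that the Control MPP library, which stood apart above, has in those that involve MPP was not tested.

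The difference KI minus Control at Gm12843 was 37.2 points in LT-HSC and -22.7 in MPP. At Rap1gap, an inhibitor of the GTPase RAP1, it was -11.0 points in LT-HSC and 17.6 in MPP. At Colca2 it was 25.9 points in ST-HSC and -28.4 in MPP. At Kdm6b with Tmem88 it was 10.8 (LT-HSC), 33.9 (ST-HSC) and -20.1 points (MPP). At Zrsr1, in the window from 22972001, it was -21.8 points in LT-HSC and 15.6 in MPP. At Sp7 with Gm36246 it was 12.6 points in ST-HSC and -51.4 in MPP, and at Tdrd1 21.6 points in ST-HSC and -12.3 in MPP.

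At Tcf7, measured at 5 positions, LT-HSC differed by -32.7 points (KI minus Control) and MPP by 20.97, and MPP minus LT-HSC was 14.2 points in KI and -39.5 in Control. At Hoxc6 MPP minus LT-HSC was 12.2 points in KI and -19.8 in Control. Nap1l5 differed by 39.5, 24.6 and -20.6 points (KI minus Control in LT-HSC, ST-HSC and MPP), but the last was not called (Fisher's exact test, adjusted p = 0.226).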

How the results depend on the processing

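The median differences between genotypes and between MPP and LT-HSC kept their direction under each alternative run. Of the values at single alternatives that answer a comparison, 85 stayed close to the reported value, 31 moved and 0 reversed. A median stayed close if it shifted by less than 2.08 points (KI minus Control) or 1.04 points (MPP minus LT-HSC). Counts were judged by their ratio and could only stay close or move, so only medians could reverse. A count of 0 under both settings scored as close.

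Some alternatives also changed how many windows were compared. Windows at least 10 points higher in KI in all 3 cell types numbered 75 of 616 as reported. They numbered 33 of 241 with at least 10 positions and 42 of 330 at a level of 30 to 70%. Of the 616, 140 were higher by at least 5 points and 12 by at least 20 points. Those lower numbered 2 of 241, 1 of 330, 10 of 616 at 5 points and 3 of 616 at 20 points. Within 2000 bases of a gene end 10 of 762 were lower. Windows higher in MPP in both genotypes numbered 85 of 616 as reported. At a coverage of at least 20 reads they numbered 49 of 352, and with at least 10 positions 28 of 241. Of the 616, 154 were higher by at least 5 points and 36 by at least 20 points. Those lower numbered 1 of 241 with at least 10 positions, 46 of 616 at 5 points and 7 of 616 at 20 points. Thinned to 10 reads per position, Fisher's test called 44 higher and 8 lower in KI LT-HSC, then 65 up and 5 down in ST-HSC, 64 up and 12 down in MPP; fewer reads were tested.

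By limma, between 0 and 2 windows were lower in KI when each cell type was left out in turn (0 without both LT-HSC libraries), and 0 without a variance trend or after thinning. At a coverage of at least 20 reads it called 1 higher in KI (2810410L24Rik), and with at least 10 positions 2 higher (2810410L24Rik and Rfx8, both partly methylated only through KI), 1 lower (Gm51701, only through Control) and, in MPP against LT-HSC, 4 higher (Fam110a, Hoxa5, Trim47 and Kcnk12). Without both ST-HSC libraries 5 were higher in MPP (Fam110a, Hoxa5, Colca2, Kcnk12 and Lhcgr) and 1 lower (Fam83a), and this comparison cannot be made without LT-HSC or MPP. The cause was not tested. Among named windows, 26 values stayed close, Nacad moved to -15.2 points on summed reads and Gm32822 to 15.9 at a coverage of at least 20 reads, and 4 were not computed there because too few positions were left. The labels carry no replicate numbers; the reported fit paired KI with Control by cell type, and without that term limma also called 0 windows higher and 2 lower in KI. Alternatives to limma at other coverages, positions and thinning were chosen after seeing the data.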
